A study of Mus musculus with 6 samples.

Results

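The CD28 and CTLA-4 receptor family was followed through 5 genes, Ctla4, Cd28, Icos, Pdcd1 and Btla, taken by symbol from the 15106 genes counted in T cells sorted out of mouse skin. All 5 were found in the table, and all 5 had enough counts to be tested. Regulatory T cells (Tregs, 4 libraries), the suppressive T cells that express the transcription factor FOXP3, stood against effector T cells (Teffs, 2 libraries). Every library came from skin of mice 6 weeks old with the genotype FOXP3-GFP, a reporter that marks FOXP3-expressing cells with green fluorescent protein; both groups carry it, no treatment is named, and the gate that defined Teffs is not given in the labels. Libraries are not tied to animals in the labels, so p-values measure the spread between these libraries, which may be partly technical.

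T cells need a second signal beside the antigen receptor, and this family provides and tunes it. CD28 and ICOS are activating receptors, for which CD80 or CD86 and ICOS ligand on antigen-presenting cells are the partners. CTLA-4 binds CD80 and CD86 more tightly than CD28 does and removes them from the presenting cell, and Tregs use it to hold other T cells in check. PD-1, the product of Pdcd1, and BTLA are inhibitory receptors whose tails recruit phosphatases; PD-1 binds PD-L1 and PD-L2, and BTLA binds HVEM, a member of the TNF receptor superfamily.

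Ctla4, Cd28 and Icos lie side by side on the plus strand of chromosome 1 (GRCm38, GENCODE vM21). Cd28 (ENSMUSG00000026012.2) spans 60716800 to 60773359, Ctla4 (ENSMUSG00000026011.13) spans 60887000 to 60915832 and Icos (ENSMUSG00000026009.14) spans 60977927 to 61000320. The gap from Cd28 to Ctla4 is 113.6 kb, and that from Ctla4 to Icos is 62.1 kb. Pdcd1 (ENSMUSG00000026285.7) is on the minus strand of the same chromosome, from 94038305 to 94052553, and Btla (ENSMUSG00000052013.15) is on chromosome 16, from 45224315 to 45257670. In that annotation no exon of another gene overlaps an exon of any of the 5.

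The 3 neighbours share a coding feature that was not found in Pdcd1 or Btla, and it is shown here because it is common to the receptors of the CD80, CD86 and ICOS ligand group. Exon 2 of each holds a run of 3 proline codons in frame, written CCNCCNCCN, which encodes the loop that contacts the ligand. The coding strand is printed 5′ to 3′ with these codons in capitals, from chr1:60912698-60912748 (Ctla4), chr1:60763260-60763310 (Cd28) and chr1:60993968-60994018 (Icos).
Ctla4: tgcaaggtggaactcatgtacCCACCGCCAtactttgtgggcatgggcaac
Cd28: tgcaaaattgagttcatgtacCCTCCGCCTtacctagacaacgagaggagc
Icos: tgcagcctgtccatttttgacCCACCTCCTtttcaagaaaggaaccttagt
Over these 51 bases Ctla4 shares 33 with Cd28 and 22 with Icos, and Cd28 shares 25 with Icos. The Ctla4 and Cd28 stretches, from receptors that bind the same ligands, were thus the closest pair. Of 21571 mouse genes with a complete coding sequence, 4315 hold such a run of codons somewhere, and none was found in the coding sequence of Pdcd1 or Btla.

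Exon 4 of the same 3 genes encodes the cytoplasmic tyrosine motif to which phosphatidylinositol 3-kinase can bind, a tyrosine codon followed at the third codon by ATG for methionine (TATNNNNNNATG or TACNNNNNNATG in frame, coding strand alone). The positions are chr1:60914625-60914678 (Ctla4), chr1:60769672-60769725 (Cd28) and chr1:60995539-60995592 (Icos), with the motif in capitals.
Ctla4: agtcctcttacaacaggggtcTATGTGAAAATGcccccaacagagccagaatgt
Cd28: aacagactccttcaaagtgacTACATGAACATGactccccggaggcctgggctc
Icos: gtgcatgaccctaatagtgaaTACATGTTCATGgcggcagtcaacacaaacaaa
Within the 12 capital bases Cd28 and Icos share 10, Ctla4 and Cd28 share 9, and Ctla4 and Icos share 7. The search covered the final part of the coding sequence, about the last 0.25 of its codons, where 8.0% of genes held the motif and Pdcd1 and Btla did not. Reads were counted per gene, so the values that follow do not separate transcripts that include or skip these exons.

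The inhibitory receptor Ctla4 and the activating receptor Icos were the abundant members in Tregs, and Ctla4 was the member that set the groups apart. Levels are given as CPM, the gene's counts relative to the library's total over tested genes, with TMM scaling. Ctla4 stood at 3694, 4413, 2611 and 4403 CPM across Treg 1 to 4, against 136 and 167 CPM across Teff 1 and 2. The lowest Treg library was 15.6 times the highest Teff library, and each group was tight beside that gap, with a highest over lowest ratio of 1.69 in Tregs and 1.23 in Teffs. Ctla4 rose in Tregs by a log2 fold change of 4.64 ± 0.43 (SE), with a 95% interval of 3.65 to 5.63, and had the smallest p of the 11775 genes tested (edgeR quasi-likelihood test, Benjamini-Hochberg adjusted p = 0.0378). It was the sole member called, 1 of 5, where 0.0340% of all tested genes were called as higher in Tregs, 0.00849% as lower and 0.0425% in either direction. The call was lost when any 1 library was left out (adjusted p of 0.0791 without Treg 1, 0.122 without Treg 2, 0.0943 without Treg 3, 0.206 without Treg 4, 0.192 without Teff 1 and 0.373 without Teff 2), while the log2 fold change stayed at 4.49 to 4.78. In the authors' deposited table Ctla4 has a log2 fold change of 4.58 and a false discovery rate of 1.78e-06, in a set where 0.285% of genes are under 0.05.

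**Figure D1:**
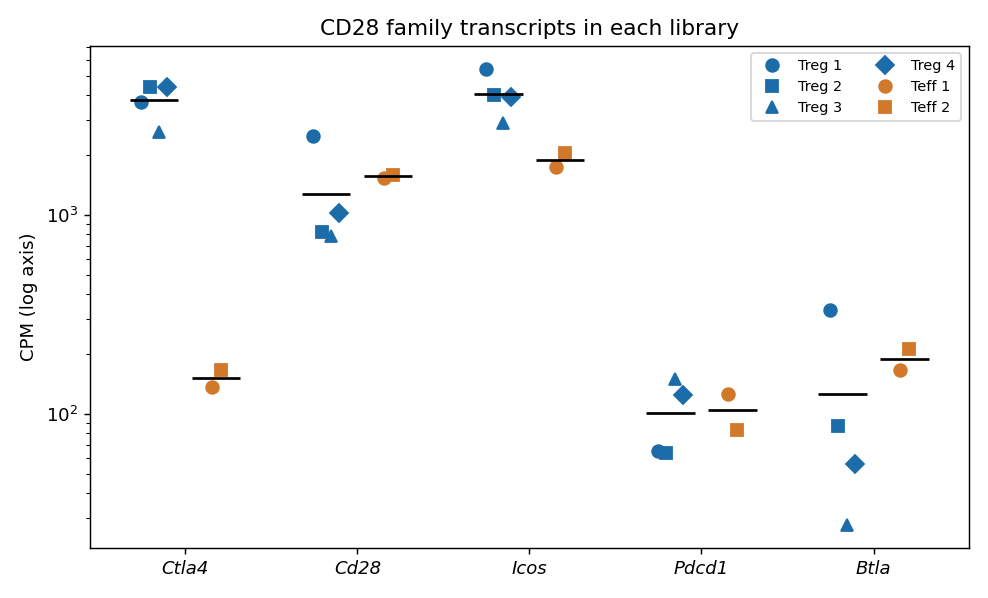
Level of each family member in each library, in CPM on a log axis; blue symbols are Treg libraries, orange symbols are Teff libraries, symbol shapes give the replicate number and bars are group means. Ctla4 and Icos have all Treg libraries above both Teff libraries, whereas Treg 1 lies apart from the other Treg libraries in Cd28 and Btla.

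Icos, the inducible co-stimulator that supports activated T cells and Tregs in tissues, was high in both groups. It stood at 5443, 3996, 2888 and 3938 CPM across Treg 1 to 4, against 1753 and 2052 CPM across Teff 1 and 2. No Teff library reached the Treg range, but the lowest Treg library was just 1.41 times the highest Teff library. The log2 fold change was 1.10 ± 0.35 (SE), with a 95% interval of 0.28 to 1.91, and did not pass over all genes (edgeR adjusted p = 0.721). Its unadjusted edgeR p was 0.0150, and 4.73% of tested genes had one under 0.05. DESeq2 called it (log2 fold change 1.12, adjusted p = 0.0341), in a run that called 1.19% of genes as higher and 0.365% as lower, 1.55% in all, and the authors' deposited table gives it a log2 fold change of 1.04 with a false discovery rate of 1. Ctla4 and Icos were thus the 2 of 5 members whose groups did not overlap, both with Tregs above, against 5.51% of all tested genes with Tregs above and 9.49% with Tregs below.

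Cd28, the constitutive co-stimulatory receptor of T cells, did not separate the groups, and Treg 1 stood apart from the other Treg libraries. It stood at 2496, 822, 787 and 1023 CPM across Treg 1 to 4, against 1536 and 1593 CPM across Teff 1 and 2. Treg 1 was above both Teff libraries, and the other 3 Treg libraries were below both. The log2 fold change was -0.29 ± 0.51 (SE), with a 95% interval of -1.46 to 0.89 (edgeR adjusted p = 1.0). Without Treg 1 it was -0.84 ± 0.26 and still did not pass (adjusted p = 0.691). The authors' deposited table gives -0.34.

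Btla, the inhibitory receptor for HVEM, had the same shape with a wider spread. It stood at 331, 87.4, 27.7 and 56.4 CPM across Treg 1 to 4, against 167 and 212 CPM across Teff 1 and 2. Treg 1 was again above both Teff libraries and the other 3 Treg libraries below both, and the highest Treg library was 11.96 times the lowest. The log2 fold change was -0.59 ± 0.88 (SE), with a 95% interval of -2.61 to 1.43 (edgeR adjusted p = 1.0), and without Treg 1 it was -1.73 ± 0.55 (adjusted p = 0.691). Treg 1 was 5.80 times the mean of the other Treg libraries for Btla, 2.85 times for Cd28, 1.51 times for Icos, 0.970 times for Ctla4 and 0.577 times for Pdcd1, so it was not high for the family as a whole.

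Pdcd1, which encodes PD-1, was low in both groups, which overlapped. It stood at 65.3, 64.0, 151 and 125 CPM across Treg 1 to 4, against 126 and 83.1 CPM across Teff 1 and 2. Treg 1 and Treg 2 were the low libraries, and the Treg values lay on both sides of the Teff values. The log2 fold change was -0.05 ± 0.54 (SE), and its 95% interval of -1.31 to 1.20 leaves room for a difference of over 2-fold in either direction (edgeR adjusted p = 1.0). Its sign turned in 3 of the 6 fits with 1 library left out (0.11 without Treg 1, 0.11 without Treg 2 and 0.27 without Teff 1).

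**Figure D2:**
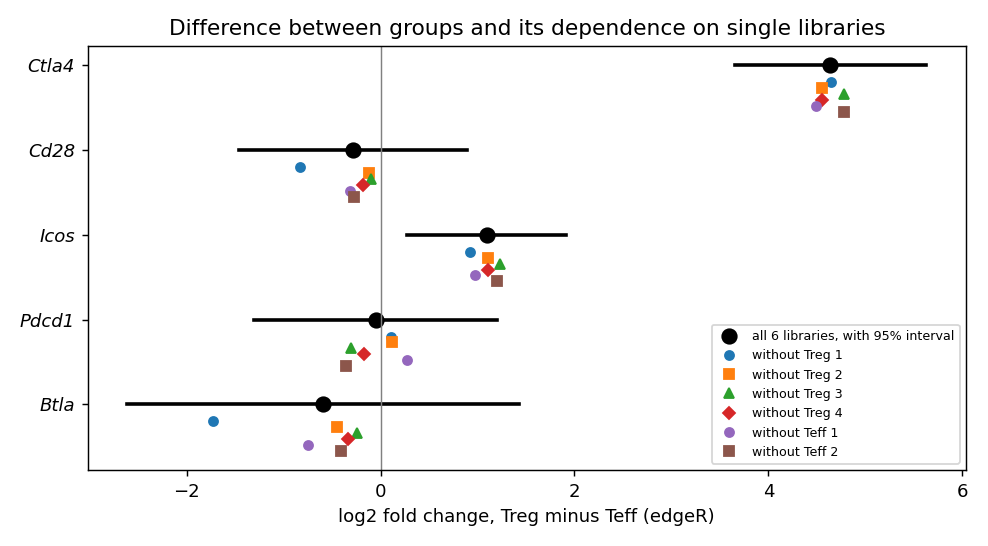
Log2 fold change of each member, Treg minus Teff, from edgeR; black points and lines are the fit on all 6 libraries with its 95% interval, and coloured symbols are fits with 1 library left out. Ctla4 stays between 4.49 and 4.78, and Cd28 and Btla move furthest when Treg 1 is left out.

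Because counts grow with transcript length, members were set against each other as CPM per kb of exon. In Tregs the order was Ctla4 at 1622 ± 365 (SD, n = 4), Icos at 1186 ± 306, Cd28 at 209 ± 133, Pdcd1 at 52.4 ± 22.5 and Btla at 37.0 ± 41.0 CPM per kb. Ctla4 and Icos did not differ beyond their spread, since Icos was level with Ctla4 or above it in Treg 1 (1587 against 1585) and below it in the other 3, and Pdcd1 and Btla overlapped as well. Icos lay above Cd28, and Cd28 above Pdcd1, with no overlap. In Teffs the order was Icos at 555 ± 61.6 (SD, n = 2), Cd28 at 256 ± 6.65, Ctla4 at 65.1 ± 9.42, Btla at 55.7 ± 9.40 and Pdcd1 at 54.3 ± 15.9 CPM per kb, and the last 3 overlapped. Ctla4 was therefore among the low members in Teffs and the first or second in every Treg library.

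The make-up of the family set the Treg libraries apart from the Teff libraries. As a share of the summed CPM per kb of the 5 members, Ctla4 made up 42.7%, 58.2%, 51.5% and 57.5% across Treg 1 to 4, against 6.25% and 6.93% across Teff 1 and 2. Cd28 made up 10.99%, 4.13%, 5.91% and 5.08% in the Treg libraries and 26.8% and 25.1% in the Teff libraries. Icos made up 34.9% to 42.8% in Tregs and 54.7% and 57.8% in Teffs. Groups did not overlap for the share of any member, and since shares add up to a whole, a gain in Ctla4 lowers the others. The 5 genes together took 0.661% to 1.10% of gene counts in Treg libraries and 0.376% and 0.432% in Teff libraries.

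**Figure D3:**
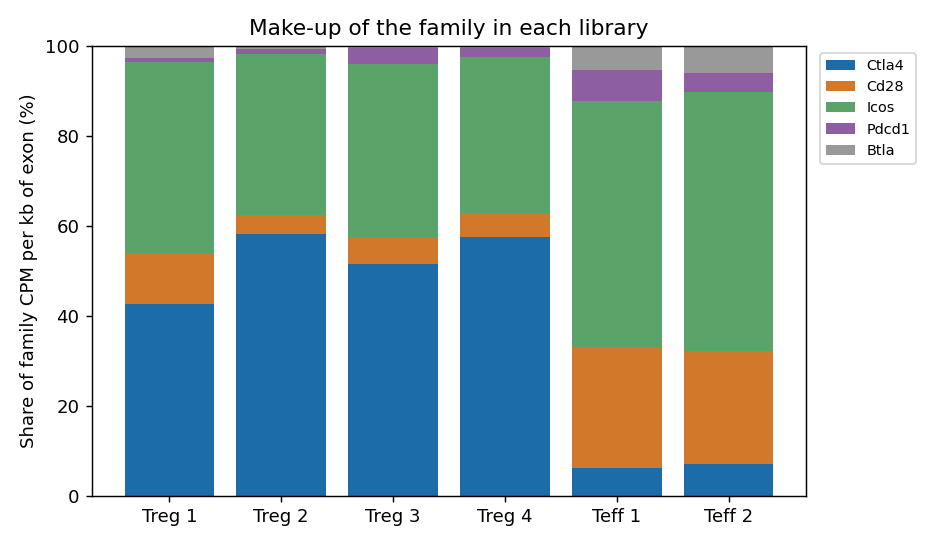
Share of each member in the family's summed CPM per kb of exon, in percent, by library. Ctla4 takes 42.7% to 58.2% in the 4 Treg libraries and 6.25% to 6.93% in the 2 Teff libraries.

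Ctla4 and Cd28 compete for the same ligands, so their ratio was taken within each library, where it does not depend on how libraries are scaled. There were 1.48, 5.37, 3.32 and 4.31 Ctla4 counts per Cd28 count across Treg 1 to 4, against 0.0887 and 0.105 across Teff 1 and 2. Treg 1, with its high Cd28, had the lowest Treg ratio and still lay far above both Teff libraries. The mean log2 ratio differed by 5.08 (33.8-fold), with p = 0.0667 in an exact two-sided permutation test, the smallest p that 4 libraries against 2 can give. The ratio of Ctla4 to Icos counts was 0.679 to 1.12 in Tregs and 0.0777 and 0.0815 in Teffs, and that of Cd28 to Icos was 0.206 to 0.459 in Tregs and 0.876 and 0.776 in Teffs. Each ratio with Ctla4 restates in part the separation of Ctla4 itself. Of the 6 ratios among the other members, those of Cd28 to Icos and Icos to Btla did not overlap between the groups, and the other 4 did.

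For each member the 3 genes with the most similar pattern were found by the root mean square difference of centred log2(CPM + 1) over the 6 libraries, among 8632 genes. For Ctla4 these were Cd83 (0.418), Il1rl1, which encodes the IL-33 receptor ST2 (0.438), and Fam46a (0.442). Cd83 and Il1rl1 were also called over all genes (log2 fold changes of 4.46 and 4.52), and Fam46a was not (3.91, edgeR adjusted p = 0.114). For Icos they were Birc3, an inhibitor of apoptosis that binds TRAF proteins (0.109), Itgae, the integrin chain CD103 that binds E-cadherin (0.112), and Arrb1 (0.130). Itgae stood at 2635, 1931, 1199 and 1865 CPM across Treg 1 to 4, against 837 and 1112 CPM across Teff 1 and 2, in the same order of libraries as Icos. For Cd28 they were Elmo1 (0.0868), Sf3b3 (0.159) and Hk1, a hexokinase (0.169), all with Treg 1 high. For Btla they were Cep164 (0.183), Gramd3 (0.262) and Sun1 (0.286), and for Pdcd1 Ccdc59 (0.131), Ttc13 (0.148) and Mrpl40 (0.185). Among the members themselves Cd28 and Btla were the closest pair (0.700) and Ctla4 and Btla the furthest apart (2.90), while Ctla4 and its chromosomal neighbours differed by 1.69 (Icos) and 2.46 (Cd28).

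The ligands of the family were low to moderate in these T cells. Of the 6, 0 were called in edgeR and 0 in DESeq2, against 0.0425% and 1.55% of all tested genes. Likewise 0 ligands had an unadjusted edgeR p under 0.05, against 4.73% of all tested genes. Their median log2 fold change was 1.61, against 0.07 over all tested genes, and it was 1.16 to 1.99 with 1 library left out and 0.40 under a replicate block on 4 libraries. Cd274, which encodes the PD-1 ligand PD-L1, was the most counted at 560, 128, 251 and 160 CPM across Treg 1 to 4, against 166 and 76.0 CPM across Teff 1 and 2, and the groups overlapped (log2 fold change 1.18 ± 0.69). Pdcd1lg2, for PD-L2, was the sole ligand without overlap, at 109, 66.7, 28.0 and 28.8 CPM in Tregs and 5.96 and 20.2 CPM in Teffs (2.15 ± 1.04 on the log2 scale, edgeR adjusted p = 1.0). Of the 6 ligands, 1 thus had all Treg libraries above and 0 all below, against 5.51% and 9.49% of all tested genes. Cd80 was at 63.0, 1.44, 31.2 and 32.1 CPM in Tregs and at 1.72 CPM and no count in Teffs, so Treg 2 lay with the Teff libraries (log2 fold change 5.16 ± 2.31, adjusted p = 1.0). Cd86 was at 0.722, 43.5, 84.0 and 42.9 CPM in Tregs and 33.5 and 38.4 CPM in Teffs. Icosl was at 36.3, 0, 59.3 and 29.0 CPM in Tregs and 43.2 and 48.5 CPM in Teffs. Tnfrsf14, for HVEM, was at most 21.0 CPM in any library and had no count in Treg 2.

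Since presenting cells make CD80 and CD86, their markers were read beside the ligands. The summed level of 9 dendritic and myeloid markers was 832 to 8602 CPM in Tregs and 1711 and 4506 CPM in Teffs, most of it Cd74, and was highest in Treg 4. The defining markers Itgax and Zbtb46 had no count in Treg 1, Treg 2, Treg 3 and Teff 2. In Treg 1, the library with the highest Cd80, Csf1r was at 78.1 CPM, its highest level in any library. Flt3, at 13.2 CPM in Treg 1, was higher there than in every library but Treg 4 (27.5 CPM). H2-Ab1, at 302 CPM, was within the range of the other libraries (38.4 to 879 CPM). Cst3, at 174 CPM, was near the other libraries (174 to 192 CPM) apart from Treg 4 (279 CPM). Lyz2 at 66.9 CPM and Cd14 at 0.180 CPM were low in Treg 1, against up to 464 and 20.4 CPM elsewhere. Cd74, at 2201 CPM, was within the range of the other libraries. Epcam, which marks Langerhans cells and also epithelial cells, was at 17.9 to 53.2 CPM in Tregs and at most 1.46 CPM in Teffs. Cd207, the other marker planned for Langerhans cells, was not among the genes counted. The part of the presenting cell markers in the ligand values was not tested. In bulk libraries fewer cells of a type and less RNA per cell cannot be told apart.

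Among genes for proteins that act at the receptor tails or just below them, most log2 fold changes were negative and small. Of 18 tested, 0 were called in edgeR and 0 in DESeq2, against 0.0425% and 1.55% of all tested genes. Likewise 0 had an unadjusted edgeR p under 0.05, against 4.73% of all tested genes. Log2 fold changes were positive for 5 and negative for 13, where 53.4% of all tested genes were positive, with a median of -0.32. That median was -0.05 without Teff 2 and -0.51 without Teff 1. The 4 with the smallest p all had lower means in Tregs. Lck, the kinase that phosphorylates the antigen receptor and the CD28 tail, was at 1640, 2175, 1099 and 1994 CPM across Treg 1 to 4, against 2490 and 3018 CPM in Teffs (log2 fold change -0.67 ± 0.35), with all Treg libraries below both Teff libraries. Ptpn6, the phosphatase SHP-1 recruited by inhibitory tails such as that of BTLA, was at 402, 236, 148 and 228 CPM in Tregs and 444 and 435 CPM in Teffs (-0.79 ± 0.42). Lck and Ptpn6 were the 2 of 18 with all Treg libraries below both Teff libraries, as were 9.49% of all tested genes. Lcp2, the adaptor SLP-76, was at 1058, 423, 592 and 570 CPM in Tregs and 1123 and 894 CPM in Teffs (-0.61 ± 0.41), so that Treg 1 again lay with the Teff libraries. Vav1, an exchange factor that acts downstream of CD28, was at 277, 79.5, 79.8 and 200.2 CPM in Tregs and 251 and 298 CPM in Teffs (-0.79 ± 0.57), with overlap as well. Lck also belongs to the T cell markers, whose summed level was 3101 to 5705 CPM in Tregs and 6360 and 6886 CPM in Teffs.

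CTLA-4 is kept mostly inside the cell and cycled to the surface. The 12 genes for this traffic had a median log2 fold change of -0.15 (-0.27 without Treg 2 and -0.02 without Treg 3). Of them 0 were called in edgeR and 1 was called as lower in DESeq2, as were 0.365% of all tested genes. Likewise 1 had an unadjusted edgeR p under 0.05, as did 4.73% of all tested genes. That gene was Trat1, which encodes TRIM, a transmembrane adaptor that helps to carry CTLA-4 to the surface. Trat1 was at 219, 60.8, 67.7 and 292 CPM across Treg 1 to 4, against 696 and 999 CPM across Teff 1 and 2, so all Treg libraries lay below both Teff libraries while Ctla4 was on the other side. Its log2 fold change was -2.41 ± 0.65 (edgeR adjusted p = 0.619, DESeq2 adjusted p = 0.0241). Rab11a, a GTPase of recycling endosomes, had the opposite order at 70.4, 73.0, 118 and 118 CPM in Tregs and 27.0 and 56.0 CPM in Teffs (1.19 ± 0.61). Of the 12 genes, 1 thus had all Treg libraries below and 1 all above, against 9.49% and 5.51% of all tested genes. Rab8a (-0.59 ± 0.41) and Ap2s1, a subunit of the AP-2 adaptor that takes CTLA-4 back from the surface (-1.17 ± 1.12), overlapped between the groups. Lrba, whose product protects CTLA-4 from lysosomal loss, averaged 104 ± 39.5 CPM in the 4 Treg libraries and 83.7 ± 33.4 CPM in the 2 Teff libraries (SD).

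Among 11 genes that regulate the receptor genes or their mRNAs, 0 were called in edgeR, 4 had an unadjusted p under 0.05 (4.73% of all tested genes) and DESeq2 called 2 as higher (1.19% of all), with a median log2 fold change of 1.03. The 4 and 1 more, 5 of 11, were higher in every Treg library than in both Teff libraries, as were 5.51% of all tested genes. Foxp3 is counted in the 4, in the 5 and in the 2 of DESeq2. Tregs are defined by its expression, so its separation is not a result about the regulators. Foxp3, the gene behind the reporter, whose protein binds at Ctla4 in Tregs, was at 103, 233, 154 and 183 CPM across Treg 1 to 4, against 11.3 and 7.17 CPM in Teffs, on the side that the labels give (log2 fold change 4.19 ± 0.61, edgeR adjusted p = 0.131). Tox, a factor tied to inhibitory receptor expression in chronically stimulated T cells, was at 782, 402, 438 and 628 CPM in Tregs and 137 and 46.9 CPM in Teffs (2.61 ± 0.57, edgeR adjusted p = 0.344). Among the inhibitory members, Ctla4 also had all Treg libraries above both Teff libraries, while Pdcd1 and Btla overlapped. A link of Tox to these genes was not tested. Batf (1.41 ± 0.50) and Prdm1 (1.67 ± 0.66), transcription factors of effector Tregs, had edgeR adjusted p of 0.746 and 0.925. Rc3h1, the mRNA-binding protein Roquin-1 that represses Icos mRNA, had a log2 fold change of -0.12 ± 0.70.

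**Figure D4:**
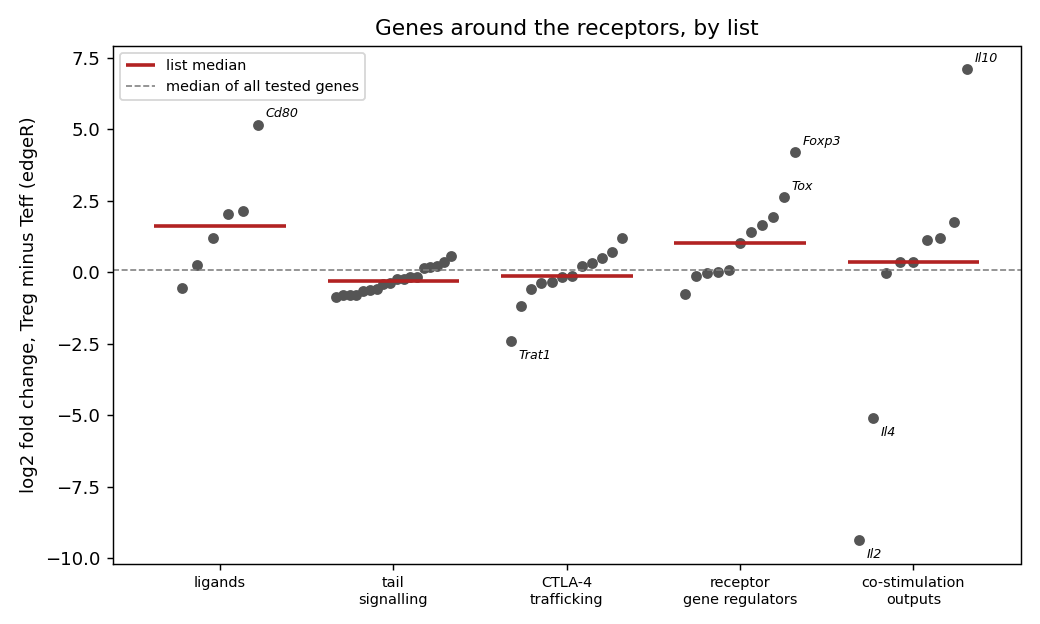
Log2 fold changes, Treg minus Teff, of the tested genes of 5 lists around the receptors; grey points are genes, red bars are list medians and the dashed line is the median of all tested genes. No point passed the edgeR test, and the widest range is among the outputs of co-stimulation, from Il2 to Il10.

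Of 10 genes known as outputs of CD28 or ICOS co-stimulation, 9 were tested, 0 were called in edgeR, 4 had an unadjusted p under 0.05 (4.73% of all tested genes) and DESeq2 called 2 as higher and 1 as lower (1.19% and 0.365% of all). Their median log2 fold change was 0.36, or 0.81 without Teff 1, with members far out on both sides. Il2, the growth factor that CD28 signals raise in conventional T cells, reached 101 and 96.9 CPM in Teff 1 and 2, while Tregs held 3 counts, all in Treg 1. Over libraries its log2 fold change was -9.37 ± 1.68 (SE), with a 95% interval of -13.26 to -5.49 (edgeR adjusted p = 0.217, DESeq2 adjusted p = 2.21e-07). Pooled Treg CPM over pooled Teff CPM came to a ratio of 0.00123, with an exact 95% counting interval of 0.000254 to 0.00361. That counting interval leaves out the spread between libraries. Il21 had no Treg count, against a Teff level of up to 2.91 CPM, and was too low to be tested. Taken at 3 counts over the Treg group it came out 18.6-fold lower, a value that leaves out the spread between libraries. Of the 9 tested, 4 had all Treg libraries above both Teff libraries and 2 had all below, against 5.51% and 9.49% of all tested genes. Il2 and Il4 were the genes below. Il4 was at 6.31 CPM in Treg 1 with no count in the other Treg libraries, against 26.5 and 82.2 CPM in Teffs (log2 fold change -5.09 ± 2.41). Il10 and Maf, both known to follow ICOS signals, lay on the other side with no overlap. Maf was at 601, 1166, 444 and 743 CPM across Treg 1 to 4, against 135 and 304 CPM in Teffs (log2 fold change 1.75 ± 0.53, edgeR adjusted p = 0.721, DESeq2 adjusted p = 0.0292). Il10 was at 447, 596, 248 and 561 CPM in Tregs and at no count and 6.98 CPM in Teffs (7.09 ± 1.55, edgeR adjusted p = 0.344). Nfkb1, a subunit of NF-kB, was at 329, 665, 278 and 527 CPM in Tregs and 196 CPM in each Teff library (1.20 ± 0.45, adjusted p = 0.826).

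Libraries held 4902126 to 7468778 counts in genes, with 9602 to 13197 genes found, so a floor of 3 counts came to 0.397 to 0.581 CPM. Every member was well above that floor in every library. Treg 1 had the fewest genes found, with Treg 2 close to it (9838). Treg 1 also had the lowest TMM scaling factor (0.913, against 0.995 to 1.05 elsewhere). The part of either in the levels of Treg 1 was not tested. T cell markers Cd3d, Cd3e, Cd3g and Cd4 were found in all 6 libraries. Skin cell markers were uneven: the summed level of 3 keratinocyte markers was 0 to 486 CPM in Tregs and 20.3 and 80.5 CPM in Teffs, and that of 3 fibroblast markers 2.88 to 499 CPM and 3.88 and 56.5 CPM, with Treg 3 highest for both. Treg 3 was also the Treg library with the lowest Ctla4, Icos, Cd28 and Btla, but its Pdcd1, at 151 CPM, was the highest of any library. The part of the skin cell markers in these levels was not tested. Leaving out Treg 3 moved the log2 fold changes of Ctla4 and Icos to 4.78 and 1.23. Of the CD8 T cell markers, Cd8a had no count in Treg 1, Treg 2 and Treg 3 and reached 66.1 CPM in Teffs, and the summed level of both CD8 markers was 0.180 to 65.6 CPM in Tregs and 93.6 and 142 CPM in Teffs. Of 3 planned gamma-delta T cell markers, 1 was among the genes counted. That gene, Cd163l1, had no count in any Treg library and was at 8.21 and 14.9 CPM across Teff 1 and 2.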

How the data were processed

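Transcripts were counted in 4 Treg and 2 Teff libraries; cDNA was made with a SMARTer kit for very small inputs, per the labels' protocols. Of the tools in the submitters' processing notes, HTSeq 0.6.1 is a read counter and TopHat2 2.0.12 an aligner; the notes give mm10 as build. Annotation and counting strand: not given in the sources used here. Raw counts of reads per gene were deposited, per the file headers, with their own comparison: a log2 fold change, a mean log2 CPM, a p-value and a false discovery rate, all deposited values of the authors.

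The 3 rows of the table that name no gene took 88.0% to 90.2% of column totals and were left out of library sizes. Tests used edgeR 4.0.16 under R 4.3.3: filterByExpr (smallest count 10), TMM scaling, then the quasi-likelihood F test on group alone, with Benjamini-Hochberg adjustment over 11775 genes and calls under 0.05. DESeq2 1.42.0 was an alternative. The SE is the log2 fold change over the square root of F. The counting interval and the floors cover counting error alone and not the effect of PCR copies. The fit was tested on simulated data: it recovered the changed genes where the spread was low, but with the common spread of these libraries it called none of them, so a gene that is not called here may still differ. Alternatives were other scalings and filters, DESeq2, a replicate block and each library left out.

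The members and lists were chosen with earlier results of these data known. Named genes were the members, ligands, Foxp3, the 4 smallest p of each other list and the 3 most similar patterns per member. Lrba, Rc3h1, Il4 and Il21 were named after their values were seen. Of the genes planned for the tail signalling list, 1 is not reported here. Motifs were read from GENCODE vM21 coding sequences, since a protein table was not used here; the alignment of proteins planned beforehand was not made.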

Additional observations from a re-analysis of the deposited data

Results flagged for a closer look

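Of 48 sets of 4 Treg values examined (CPM of named genes, the Ctla4 to Cd28 ratio and the shares of the members), 5 held a library far from the other 3. Chance gives about 1 in 20 where values follow a normal distribution, which CPM need not do. The 5 are not independent, since 3 of them were named for resembling Cd28 or Btla. In each the library was Treg 1, on the high side. Cd28 was at 2496 CPM in Treg 1 and at most 1023 CPM in the other Treg libraries. Sf3b3 was at 392 CPM against at most 161 CPM, Hk1 at 205 CPM against at most 86.7 CPM, and Cep164 at 57.7 CPM against at most 11.7 CPM. Il2 was at 0.541 CPM, which is 3 counts, with no count in the other Treg libraries, a pattern that always meets the criterion. Btla was also highest in Treg 1, by less than this criterion asks for.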

How the results depend on the processing

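The log2 fold change of Ctla4 kept its direction under all 12 alternatives and its call under 5 of them. Leaving out 1 library gave 4.49 to 4.78 with no call, and 0 to 2 calls over all genes; where 1 Teff library was left, it was assumed to vary as the Treg libraries do. Upper-quartile scaling moved the median log2 fold change of all genes from 0.07 to -0.04, and that of Ctla4 to 4.52. The 12 alternatives also left the direction of Cd28, Icos and Btla as it was; Pdcd1 turned sign without Treg 1 (0.11), Treg 2 (0.11) or Teff 1 (0.27), within a range of -0.36 to 0.27. Without a filter 19 genes were called, with 1 receptor gene regulator among them, and DESeq2 called 183, with Icos (1.12), 1 trafficking gene, 2 regulators and 3 co-stimulation outputs; the cause of these differences was not tested. A replicate block could use Treg 1, Treg 2 and both Teff libraries alone: it called 1 gene, and Ctla4 missed the threshold (log2 fold change 4.74, adjusted p = 0.0634). The shared numbers are not known to pair libraries, and deviations from the group means correlated at -0.012 for Treg 1 with Teff 1 and 0.169 for Treg 2 with Teff 2, where both Teff deviations mirror each other. Without a length correction the difference in the share of Ctla4 was 37.2 percentage points in place of 45.9. With 4 libraries against 2, the standard errors of 0.51 (Cd28), 0.54 (Pdcd1) and 0.88 (Btla) on the log2 scale limit what could be told from no difference.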
